A study of Mus musculus with 44 samples.

Results

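Cd4, Cd8a, Cd8b1, Zbtb7b, Runx3 and Klrd1 are genes by which CD4 and CD8 T cells are told apart, and they are 6 of the 55416 genes in the deposited count table. They were taken by gene name, a rule that uses no measured value, and the names were proposed with earlier results of these data known. The RNA came from cultures of CD4 T cells of C57BL/6NTac mice with one of 3 genotypes of miR-150, a microRNA of lymphocytes, given as WT (wild type), KO (knockout) and KI (knock-in). The labels do not say what the knock-in carries. Every culture began with naive CD4 T cells sorted from spleen, plated at 150000 cells per well for 3 days on bound antibody to CD3 with soluble antibody to CD28. Th0 cultures received nothing else, Th1 cultures also received IL-12 and an antibody to IL-4, and Treg cultures instead received TGF-beta 1 and an antibody to IFN-gamma. The 3 cultures and 3 genotypes made 9 groups of 5 libraries, apart from Th0 KI with 4, or 44 libraries in all. Libraries are named here by culture, genotype and the number in their title (Treg WT 4), and Th0 KI has the numbers 1, 3, 4 and 5. The labels do not say whether libraries came from separate mice, so p-values measure the spread between these libraries.

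Cd4 encodes the coreceptor that binds MHC class II beside the T cell receptor on helper and regulatory T cells. Cd8a and Cd8b1 encode the alpha and beta chains of CD8, the coreceptor for MHC class I on cytotoxic T cells, where CD8 is mostly an alpha-beta pair, while some other cells, such as a set of dendritic cells, carry pairs of alpha chains alone. In the thymus Zbtb7b, also called ThPOK, holds cells to the CD4 lineage and restrains CD8 lineage genes, and Runx3 supports Cd8 genes and silences Cd4 in the CD8 lineage. Runx3 is also made in Th1 cells, where it acts with T-bet. Klrd1 encodes CD94, the chain that pairs with NKG2 proteins to form receptors of NK cells and activated CD8 T cells. A culture of sorted CD4 T cells would therefore hold Cd4 and Zbtb7b, with little Cd8a, Cd8b1 or Klrd1.

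The libraries held 60815821 to 137415965 counts, and the lowest count of a member in any library was 60, for Klrd1. All 6 members passed the filter on low counts, as did 21873 of all genes, so the filter selected none of them. Mir150, the gene of the altered microRNA, had 6 counts in all 15 libraries of WT together, 0 in all 15 of KO and 7 in all 14 of KI, with at most 2 in a library. That is under the floor of 3 counts in every library, and polyadenylated RNA does not hold the mature microRNA, so these counts do not check the genotypes. Libraries numbered WT 4 and KI 3 stood apart in all cultures, with Cd8a between 107.4 and 443 CPM (counts scaled to library size with TMM factors), and in the remaining libraries Cd8a reached at most 73.1 CPM, in Treg KO 2. By mean Cd8a over the cultures, WT 4, KO 2 and KI 3 led their genotypes (229, 38.3 and 177 CPM), and the comparisons below are also given without them, an alternative chosen after the data were seen. Relations between levels leave out WT 4 and KI 3 but keep KO 2. In bulk RNA, fewer cells of a type and less RNA per cell cannot be told apart.

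Cd8b1 and Cd8a lie side by side on chromosome 6 (GRCm38, GENCODE release 21) on the plus strand, at 71322788 to 71337494 and 71373427 to 71379173, with 35933 bases between them. Klrd1 and Cd4 are on the same chromosome, at 129591782 to 129598775 on the plus strand and 124864692 to 124888221 on the minus strand. Zbtb7b lies on chromosome 3 at 89377644 to 89394776 on the minus strand, and Runx3 on chromosome 4 at 135120652 to 135177990 on the plus strand. RefSeq promoters (GRCm38.p6) were held for 3 members, with 2 start sites each for Zbtb7b and Runx3 and 1 for Cd8a, while Cd4, Cd8b1 and Klrd1 had no entry. The 250 bases before a start are shown for these 3 genes because Runx factors are known to act on elements of the Zbtb7b and Cd8 genes. Capitals mark the letters TGTGGT or, on the other strand, ACCACA, the core of the Runx motif.
Runx3, chr4:135120395-135120644, plus strand: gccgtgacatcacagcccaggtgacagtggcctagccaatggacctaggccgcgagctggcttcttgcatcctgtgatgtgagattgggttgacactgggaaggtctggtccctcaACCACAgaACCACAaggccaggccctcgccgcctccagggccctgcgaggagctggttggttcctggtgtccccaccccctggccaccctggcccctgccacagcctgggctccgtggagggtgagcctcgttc
Zbtb7b, chr3:89387672-89387921, minus strand: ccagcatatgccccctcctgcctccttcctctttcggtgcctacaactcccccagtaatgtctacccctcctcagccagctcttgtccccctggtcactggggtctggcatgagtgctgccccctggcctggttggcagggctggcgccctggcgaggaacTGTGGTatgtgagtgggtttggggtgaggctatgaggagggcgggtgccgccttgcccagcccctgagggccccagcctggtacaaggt
Cd8a, chr6:71373177-71373426, plus strand: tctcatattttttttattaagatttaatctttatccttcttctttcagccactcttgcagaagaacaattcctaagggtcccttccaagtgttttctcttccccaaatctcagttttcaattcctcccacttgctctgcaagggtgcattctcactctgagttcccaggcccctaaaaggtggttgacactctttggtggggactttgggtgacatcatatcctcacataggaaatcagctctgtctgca
The Runx3 window held 2 matches that lie 2 bases apart, the Zbtb7b window held 1, and the Cd8a window held none. The windows before the other Zbtb7b start and the other Runx3 start also held none. Of 32851 RefSeq promoters, which add the first bases after the start to such a window, 16.8% hold the motif on either strand, so a match in such a window is common.

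Divided by exon length, Cd4 was the highest of the 6 by median over the 44 libraries, at 114 CPM per kb of exon, followed by Runx3 at 21.3, Zbtb7b at 8.51, Cd8b1 at 5.92, Klrd1 at 4.78 and Cd8a at 2.60 CPM per kb. Within libraries, Cd4 was above Runx3 in 43 of 44, Runx3 above Zbtb7b in 37, Zbtb7b above Cd8b1 in 33, Cd8b1 above Klrd1 in 33 and Klrd1 above Cd8a in 28. The ranges of all neighbours in this order overlapped. Cd8a ran from 0.350 to 121.7 CPM per kb, Klrd1 from 0.410 to 60.8 and Cd8b1 from 1.88 to 99.3. Cd4 and Zbtb7b, the genes of the CD4 lineage, varied far less, from 41.9 to 173 and from 3.44 to 13.7 CPM per kb.

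**Figure D1:**
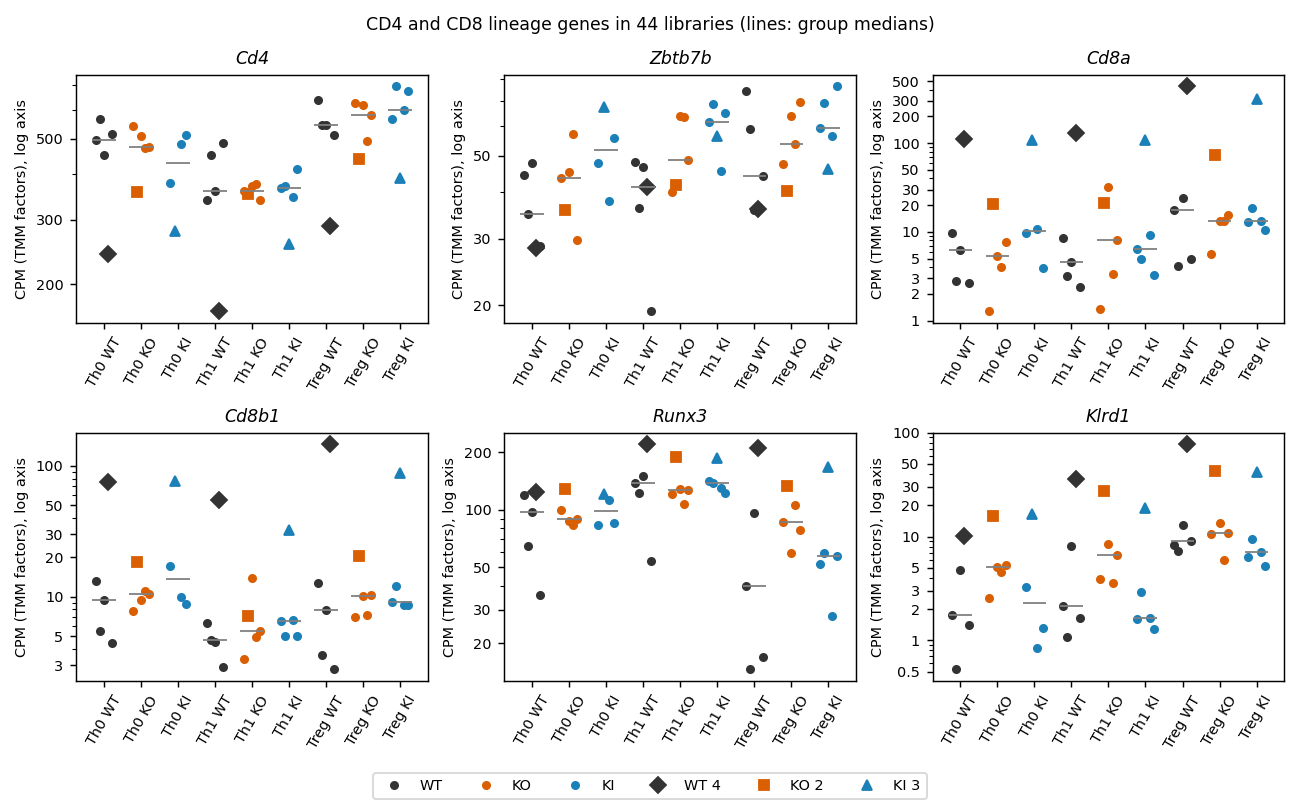
Level of each member in every library, in CPM with TMM factors on a log axis, by culture and genotype; points are libraries, and the libraries numbered WT 4, KO 2 and KI 3 are marked by shape, with grey lines at group medians. In Treg cultures Cd8a reached 443 CPM in WT 4 and 318 CPM in KI 3, against at most 23.9 CPM in the 12 Treg libraries of other numbers than WT 4, KO 2 and KI 3.

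Cd4 was present in every library, and by library number it stood lower in Th1 than in Th0 and higher in Treg than in Th1. In Th0, Cd4 stood at 494, 567, 451, 242 and 515 in the WT libraries, 543, 357, 509.7, 471 and 474 in the KO libraries and 377, 279, 482 and 512 in the KI libraries, all in CPM. In Th1, Cd4 stood at 340.1, 449.7, 359, 169 and 485 in the WT libraries, 359.7, 353, 371, 377 and 340.4 in the KO libraries and 367, 372, 258, 346 and 413 in the KI libraries. In Treg, Cd4 stood at 636, 544, 546, 289 and 510.5 in the WT libraries, 625, 439.6, 617, 493 and 579 in the KO libraries and 566, 697, 389, 598 and 677 in the KI libraries. WT 4 was the lowest library of each culture and KI 3 the second lowest, and the cultures overlapped. With WT 4, KO 2 and KI 3 left out, Cd4 ran from 377 to 567 CPM in Th0, from 340.1 to 485 CPM in Th1 and from 493 to 697 CPM in Treg, so the Treg and Th1 libraries that remained did not overlap. Among libraries of the same number, Cd4 was lower in Th1 than in Th0 in 14 of 14, higher in Treg than in Th1 in 15 of 15 and higher in Treg than in Th0 in 12 of 14.

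Tested with edgeR's quasi-likelihood method over all genes, Cd4 rose in Treg against Th1 in KO and KI. The log2 fold change ± SE was 0.49 ± 0.22 in WT (adjusted p = 0.083), 0.61 ± 0.22 in KO (adjusted p = 0.028) and 0.74 ± 0.22 in KI (adjusted p = 0.0077). No other member was called in these comparisons by this unpaired fit. Of all genes it called 30.8%, 29.99% and 32.8% in WT, KO and KI, so there 1 of 6 members is no more than that background. The KO call was lost without Th1 KO 1, at 0.58 (adjusted p = 0.063), without Th1 KO 2, at 0.58 (adjusted p = 0.061), and without Th1 KO 5, at 0.59 (adjusted p = 0.056). It was also lost without Treg KO 1, at 0.53 (adjusted p = 0.089), without Treg KO 3, at 0.53 (adjusted p = 0.086), and without Treg KO 5, at 0.56 (adjusted p = 0.070). The KI call held without each library in turn, at 0.63 to 0.82. In WT the call appeared without Treg WT 4, at 0.63 (adjusted p = 0.021), or without Th1 WT 5, at 0.62 (adjusted p = 0.037). With the library number as a block, the WT value was 0.53 (adjusted p = 9.0e-05), where 37.3% of all genes were called. That block called 4, 4 and 5 of the 6 members in WT, KO and KI, against 37.3%, 36.7% and 39.9% of all genes. These groups did not meet the rule for pairs given below. The log2 fold changes without WT 4, KO 2 and KI 3 in all cultures were 0.43 in WT (adjusted p = 0.0028), 0.64 in KO (adjusted p = 4.6e-05) and 0.73 in KI (adjusted p = 7.2e-06).

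For Th1 against Th0, the log2 fold change of Cd4 was -0.33 ± 0.22 in WT (adjusted p = 0.51), -0.39 ± 0.22 in KO (adjusted p = 0.27) and -0.23 ± 0.23 in KI (adjusted p = 0.62), and none passed. Of all genes, 3.04% were called in WT, 9.51% in KO and 5.92% in KI. Same-numbered libraries of these groups deviated together and were read as pairs, and with the number as a block Cd4 fell in Th1 by 0.35 ± 0.09 (adjusted p = 0.019) in WT and by 0.37 ± 0.09 (adjusted p = 0.0070) in KO on the log2 scale, where 7.15% and 18.2% of all genes were called. In KI the paired value was -0.26 ± 0.10 (adjusted p = 0.10), with 10.9% of all genes called. Paired and without WT 4, KO 2 and KI 3, the WT call was lost, at -0.30 (adjusted p = 0.12), and the KO value was -0.44 (adjusted p = 0.0047). Unpaired and without them, the values were -0.29 in WT (adjusted p = 0.20), -0.44 in KO (adjusted p = 0.0086) and -0.27 in KI (adjusted p = 0.18). Treg against Th0 gave 0.16 ± 0.22 in WT (adjusted p = 0.62), 0.23 ± 0.22 in KO (adjusted p = 0.46) and 0.50 ± 0.23 in KI (adjusted p = 0.089), where 33.1%, 32.98% and 33.6% of all genes were called. With the number as a block, Cd4 rose in Treg KI by 0.47 ± 0.10 (adjusted p = 0.00078), with 39.3% of all genes called, at 0.45 (adjusted p = 0.0041) in the paired fit without WT 4, KO 2 and KI 3 and at 0.61 (adjusted p = 0.041) unpaired without Treg KI 3. Without Th0 WT 4 the WT value was -0.02 (adjusted p = 0.97).

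**Figure D2:**
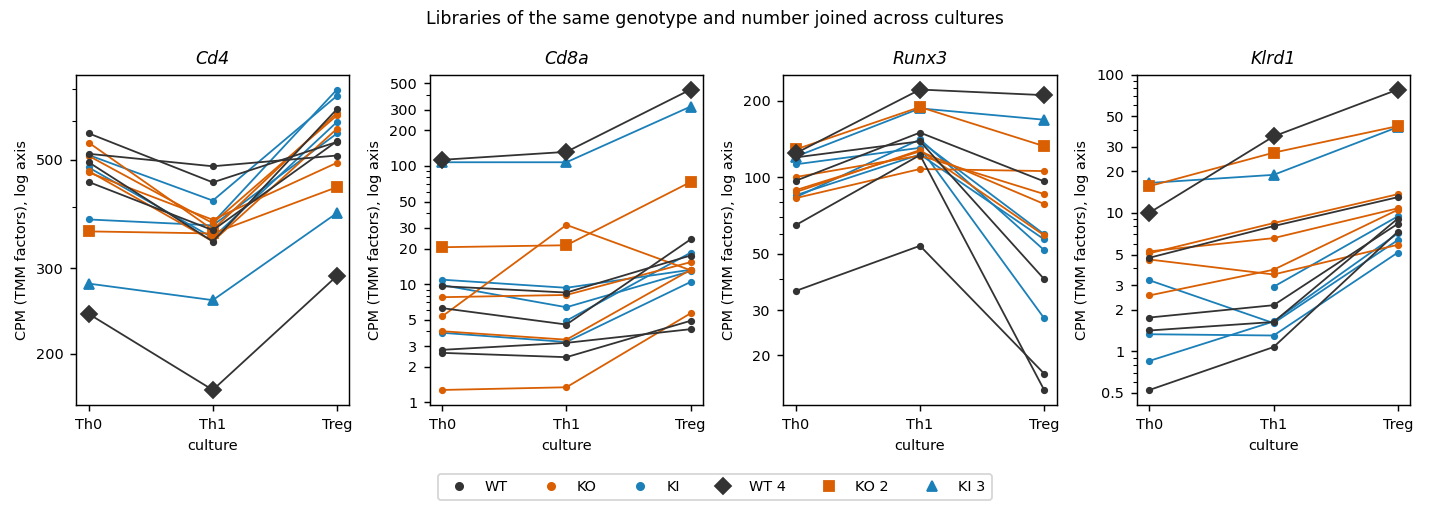
Level of Cd4, Cd8a, Runx3 and Klrd1 by library number across the 3 cultures, in CPM with TMM factors on a log axis. Each line joins the libraries of one genotype and number. Cd4 was lower in Th1 than in Th0 in 14 of 14 numbers, and Runx3 was higher in Th1 than in Th0 in 14 of 14.

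Cd8a, the alpha chain of CD8, was low in most libraries and high in a few, and the same numbers were high in each culture. In Th0, Cd8a stood at 9.62, 2.78, 6.27, 112.7 and 2.62 in the WT libraries, 1.27, 20.5, 5.35, 4.002 and 7.76 in the KO libraries and 9.82, 107.5, 10.9 and 3.88 in the KI libraries, all in CPM. In Th1, Cd8a stood at 8.49, 3.19, 4.56, 131.5 and 2.41 in the WT libraries, 1.34, 21.3, 31.7, 3.39 and 8.11 in the KO libraries and 6.38, 4.91, 107.4, 9.32 and 3.24 in the KI libraries. In Treg, Cd8a stood at 17.5, 4.16, 23.9, 443 and 4.90 in the WT libraries, 5.67, 73.1, 13.1, 13.2 and 15.4 in the KO libraries and 12.9, 18.4, 318, 13.2 and 10.4 in the KI libraries. WT 4 was the highest library and KI 3 the second highest in each culture, KO 2 was the third highest in Th0 and Treg, and in Th1 KO 3 stood above KO 2. Th1 KO 3 was 2.57 above Th0 KO 3 on the log2 scale. By library number, Cd8a was higher in Treg than in Th0 in 14 of 14, higher in Treg than in Th1 in 14 of 15 and higher in Th1 than in Th0 in 6 of 14, so Treg cultures held the most Cd8a relative to all RNA.

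None of the culture comparisons called Cd8a without pairing, and the spread between libraries was wide. For Treg against Th0 the log2 fold change was 1.88 ± 1.36 in WT (adjusted p = 0.30), 1.63 ± 1.35 in KO (adjusted p = 0.38) and 1.17 ± 1.43 in KI (adjusted p = 0.57). With the number as a block, Cd8a rose in Treg KO by 1.65 ± 0.34 (adjusted p = 0.00039) and in Treg KI by 1.01 ± 0.37 (adjusted p = 0.033), where 40.4% and 39.3% of all genes were called. In that fit without WT 4, KO 2 and KI 3 the KO value was 1.57 (adjusted p = 0.0037), and the KI call was lost, at 0.82 (adjusted p = 0.17). The WT groups did not meet the rule for pairs. Their block value was 1.31 (adjusted p = 0.0033), with 40.4% of all genes called. Without WT 4, KO 2 and KI 3 that value was 1.13 (adjusted p = 0.031), with 41.2% called. Unpaired values turned on single libraries. In WT, Treg against Th0 was 4.19 (adjusted p = 0.039) without Th0 WT 4 and -1.06 (adjusted p = 0.56) without Treg WT 4, and in KI it was -1.28 (adjusted p = 0.51) without Treg KI 3. With WT 4, KO 2 and KI 3 left out of all cultures, the values were 1.25 in WT (adjusted p = 0.15), 1.35 in KO (adjusted p = 0.12) and 0.73 in KI (adjusted p = 0.47).

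Set against Cd4 in the same library, Cd8a counts were 46.6% of Cd4 counts in Th0 WT 4, 77.9% in Th1 WT 4 and 153% in Treg WT 4, where Cd8a outnumbered Cd4. In KI 3 they were 38.5%, 41.7% and 81.6% in Th0, Th1 and Treg, and in KO 2 5.76%, 6.04% and 16.6%. Elsewhere the share was 0.235% to 2.60% in Th0, 0.374% to 8.55% in Th1, with the highest in Th1 KO 3, and 0.765% to 4.38% in Treg. In each culture WT 4 and KI 3 lay above every other library, KO 2 included. By library number the share was higher in Treg than in Th0 in 12 of 14, by a median of 2.03 times, and higher in Treg than in Th1 in 13 of 15, by a median of 1.96 times.

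**Figure D3:**
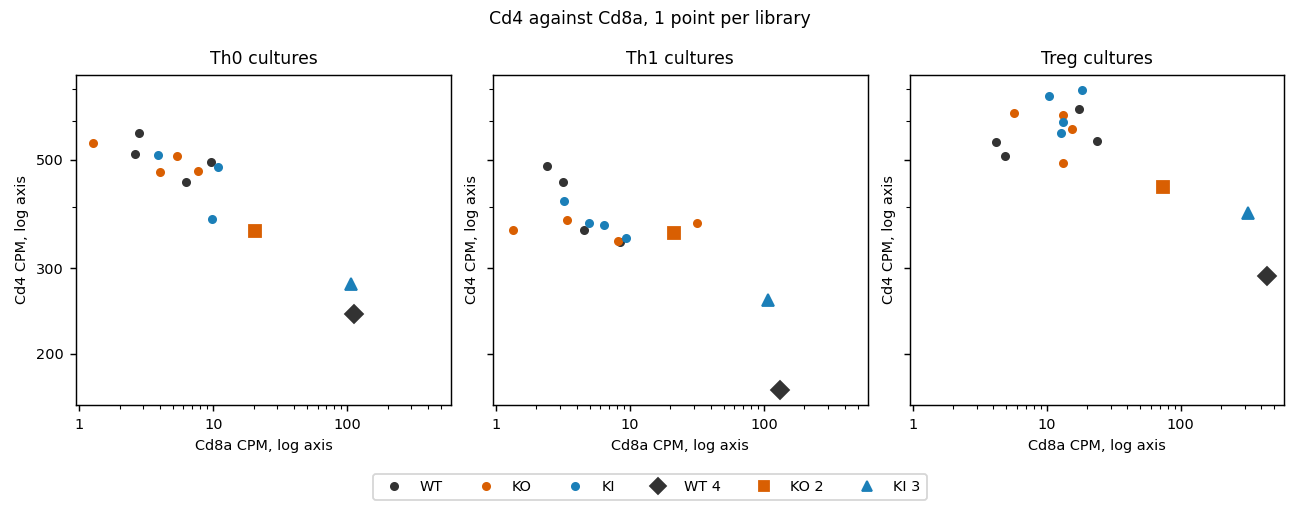
Cd4 against Cd8a in each library, both in CPM with TMM factors on log axes, with 1 panel per culture and genotypes in colour. WT 4 and KI 3 lie at high Cd8a and low Cd4 in each culture, from 107.4 CPM of Cd8a upwards.

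WT 4, KO 2 and KI 3 also had the highest summed CPM of CD8 T and NK effector genes in their groups. The part of other cells in the results was not tested. The 20 CD8 T and NK effector genes summed to 5999, 6844 and 5796 CPM in Th0, Th1 and Treg WT 4, 5208, 2939 and 2306 CPM in KO 2 and 3956, 3073 and 2011 CPM in KI 3, against group medians of 310.1 to 2031 CPM. All 20 were in the table. One of them, Gzmb, which encodes granzyme B, ran from 1.08 to 5733 CPM with a median of 798 CPM. The next highest, Nkg7, reached 346 CPM. A sum can therefore be largely that of Gzmb, and sums without it were not computed. The 8 B cell markers summed to 1818, 833 and 418 CPM in WT 4, 2849, 1796 and 1872 CPM in KI 3 and 897, 559 and 417 CPM in KO 2, with group medians of 147 to 1008 CPM. In Th0 and Th1 these 3 numbers were the highest of their groups, as was KI 3 in Treg, but Treg WT 4 lay below its group median of 428 CPM and Treg KO 2 was the lowest of its group, whose median was 576 CPM. The markers of NKT, gamma delta and innate lymphoid cells, 8 of 10 tested, summed to 72.1, 55.02 and 73.4 CPM in KO 2, 51.5, 45.5 and 33.4 CPM in KI 3 and 31.8, 31.2 and 45.8 CPM in WT 4, with group medians of 10.5 to 45.8 CPM, and Treg WT 4 and Treg KI 3 were themselves the medians of their groups. The myeloid and dendritic markers, 10 of 12 tested, summed to 37.1, 89.9 and 46.5 CPM in WT 4 and had group medians of 10.7 to 41.6 CPM. The highest library of the KO groups reached 19.9, 48.5 and 28.6 CPM in Th0, Th1 and Treg. That of the KI groups reached 31.2, 53.98 and 43.7 CPM. Single markers differed widely in level. Prf1, which encodes perforin, reached 314 CPM, Klrk1, which encodes the receptor NKG2D, 165.6 CPM and Klrc1 131.1 CPM, with medians of 14.9, 16.05 and 4.91 CPM. Ncr1, an activating receptor of NK cells, ran from 0 to 6.66 CPM with a median of 0.235 CPM, and 10 of 44 libraries were at or under 3 counts. Klrb1c, which carries the NK1.1 epitope, ran from 0 to 7.93 CPM with a median of 0.321 CPM and 4 such libraries. Xcr1 and Clec9a, receptors of the dendritic cells that can carry CD8 alpha, reached at most 0.706 and 0.225 CPM. Other genes of the myeloid and dendritic list reached more, with Batf3 at up to 61.3 CPM, Lyz2 at up to 34.7 CPM and Flt3 at up to 20.1 CPM.

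Cd8b1, the beta chain of CD8, followed the same libraries as Cd8a, with a lower level in Th1. In Th0, Cd8b1 stood at 13.3, 5.50, 9.48, 75.4 and 4.43 in the WT libraries, 7.74, 18.4, 9.46, 11.2 and 10.4 in the KO libraries and 17.3, 77.3, 10.02 and 8.82 in the KI libraries, all in CPM. In Th1, Cd8b1 stood at 6.35, 4.65, 4.50, 55.001 and 2.93 in the WT libraries, 3.34, 7.11, 13.9, 4.92 and 5.52 in the KO libraries and 6.48, 4.98, 32.5, 6.59 and 4.99 in the KI libraries. In Treg, Cd8b1 stood at 12.7, 3.60, 7.88, 147 and 2.78 in the WT libraries, 7.03, 20.6, 10.1, 7.26 and 10.4 in the KO libraries and 9.13, 12.1, 88.8, 8.72 and 8.61 in the KI libraries. WT 4 and KI 3 were again the 2 highest libraries in each culture, and the groups overlapped elsewhere. By library number Cd8b1 was higher in Th1 than in Th0 in 1 of 14, higher in Treg than in Th0 in 4 of 14 and higher in Treg than in Th1 in 12 of 15. The unpaired log2 fold change for Th1 against Th0 was -0.56 ± 0.92 in WT (adjusted p = 0.84), -0.72 ± 0.93 in KO (adjusted p = 0.70) and -1.35 ± 0.98 in KI (adjusted p = 0.46), and none passed. With the number as a block, Cd8b1 fell in Th1 by 0.79 ± 0.26 (adjusted p = 0.031) in KO and by 1.07 ± 0.27 (adjusted p = 0.010) in KI on the log2 scale, and it was -0.68 ± 0.25 (adjusted p = 0.11) in WT. Without WT 4, KO 2 and KI 3 the paired KO call was lost, at -0.64 (adjusted p = 0.090), and the KI value was -1.02 (adjusted p = 0.024). Without Th0 WT 4 the unpaired WT value was 0.82 (adjusted p = 0.77). Leaving out WT 4, KO 2 and KI 3 gave unpaired values of -0.81 in WT (adjusted p = 0.37), -0.47 in KO (adjusted p = 0.48) and -1.04 in KI (adjusted p = 0.13).

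The 2 CD8 chains did not move in step between cultures. Cd8b1 counts per Cd8a count had a median of 1.76 in Th0, 1.01 in Th1 and 0.693 in Treg over the libraries other than WT 4, KO 2 and KI 3. The ratio was lower in Th1 than in Th0 in 14 of 14 numbers, with a median fold of 0.558, and lower in Treg than in Th0 in 14 of 14, with a median fold of 0.395. It was lower in Treg than in Th1 in 14 of 15 numbers, with a median fold of 0.698 and KO 3 as the exception, at 1.76 times. The libraries with the most Cd8a had low ratios, at 0.669, 0.418 and 0.333 in WT 4, 0.719, 0.303 and 0.280 in KI 3 and 0.897, 0.333 and 0.281 in KO 2, in the order Th0, Th1 and Treg. The highest ratio was 6.07, in Th0 KO 1, the library with the lowest Cd8a. The ratio differed between the 2 sequencing lanes of a library by at most 1.62 times, with a median of 1.15 times.

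**Figure D4:**
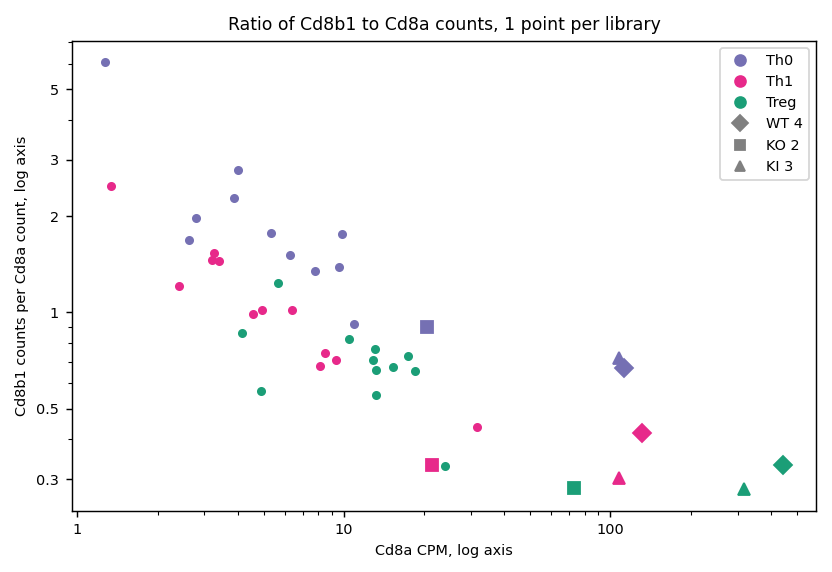
Cd8b1 counts per Cd8a count in each library against Cd8a in CPM, both on log axes, by culture. Cd8a enters both axes, so some slope comes from the plot itself; within each number Treg libraries lie below Th0 libraries, in 14 of 14 numbers.

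Zbtb7b, the CD4 lineage factor, had a range about as narrow as that of Cd4 and did not separate the libraries with high Cd8a. In Th0, Zbtb7b stood at 44.4, 34.96, 47.8, 28.4 and 28.7 in the WT libraries, 43.6, 35.8, 45.1, 57.1 and 29.8 in the KO libraries and 47.9, 67.4, 37.9 and 55.7 in the KI libraries, all in CPM. In Th1, Zbtb7b stood at 48.1, 36.3, 46.7, 41.3 and 19.3 in the WT libraries, 39.97, 41.6, 63.8, 63.4 and 48.6 in the KO libraries and 61.5, 68.5, 56.3, 45.5 and 64.8 in the KI libraries. In Treg, Zbtb7b stood at 74.1, 58.7, 35.8, 35.9 and 44.2 in the WT libraries, 47.4, 40.3, 63.7, 53.7 and 69.3 in the KO libraries and 59.01, 68.8, 46.1, 56.5 and 76.7 in the KI libraries. KI 3 was the highest Th0 library at 67.4 CPM, WT 4 the lowest at 28.4 CPM, and all groups overlapped. The lowest value of all, 19.3 CPM, was in Th1 WT 5, where Cd8a stood at 2.41 CPM. By library number, Zbtb7b was higher in Th1 than in Th0 in 10 of 14, higher in Treg than in Th0 in 11 of 14 and higher in Treg than in Th1 in 8 of 15. No culture comparison called it. Treg against Th0 gave 0.43 ± 0.22 in WT (adjusted p = 0.13), 0.38 ± 0.22 in KO (adjusted p = 0.20) and 0.23 ± 0.24 in KI (adjusted p = 0.48) on the log2 scale.

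Runx3, the CD8 lineage factor that Th1 cells also use, stood higher in Th1 than in the other cultures by library number. In Th0, Runx3 stood at 119.7, 64.9, 96.9, 124.4 and 35.8 in the WT libraries, 100.3, 128.7, 87.5, 82.8 and 89.0 in the KO libraries and 83.5, 120.6, 112.5 and 85.0 in the KI libraries, all in CPM. In Th1, Runx3 stood at 138.5, 122.3, 149.8, 221 and 53.8 in the WT libraries, 121.7, 189, 127.9, 107.8 and 126.5 in the KO libraries and 140.97, 138.9, 187, 130.6 and 122.96 in the KI libraries. In Treg, Runx3 stood at 39.8, 14.6, 96.3, 210.3 and 16.9 in the WT libraries, 85.9, 132.5, 59.1, 105.8 and 78.5 in the KO libraries and 51.7, 59.7, 168, 27.9 and 57.01 in the KI libraries. Treg libraries spread the most, with WT 2 at 14.6 CPM and WT 4 at 210.3 CPM, and the cultures overlapped. WT 4, KO 2 and KI 3 took the 3 highest places in each culture. Runx3 was higher in Th1 than in Th0 in 14 of 14 numbers, lower in Treg than in Th1 in 15 of 15 and higher in Treg than in Th0 in 4 of 14.

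No unpaired comparison called Runx3. For Treg against Th1 the log2 fold change was -0.86 ± 0.46 in WT (adjusted p = 0.16), -0.54 ± 0.46 in KO (adjusted p = 0.41) and -0.98 ± 0.46 in KI (adjusted p = 0.10). Runx3 fell without 1 library of the Treg group, at -1.70 (adjusted p = 0.0023) without Treg WT 4 and at -1.58 (adjusted p = 0.0082) without Treg KI 3. Leaving out WT 4, KO 2 and KI 3 in all cultures gave -1.48 in WT (adjusted p = 0.0042), -0.60 in KO (adjusted p = 0.26) and -1.48 in KI (adjusted p = 0.0041). These groups did not meet the rule for pairs. With the number as a block, Runx3 was called in WT, at -1.32 (adjusted p = 0.0014), and in KI, at -1.16 (adjusted p = 0.0032). Of all genes, 37.3% and 39.9% were called there. With the block and without WT 4, KO 2 and KI 3, the values were -1.74 in WT (adjusted p = 4.3e-05), -0.61 in KO (adjusted p = 0.082) and -1.50 in KI (adjusted p = 0.00015). For Th1 against Th0 the unpaired values were 0.63 ± 0.46 in WT (adjusted p = 0.57), 0.46 ± 0.46 in KO (adjusted p = 0.59) and 0.52 ± 0.49 in KI (adjusted p = 0.60), and with the number as a block they were 0.62 ± 0.30 (adjusted p = 0.24), 0.46 ± 0.30 (adjusted p = 0.31) and 0.52 ± 0.33 (adjusted p = 0.34), and none passed. No test combined the 14 numbers. The ratio of Zbtb7b to Runx3 counts was higher in Treg than in Th1 in 12 of 15 numbers, by a median of 2.30 times, and higher in Treg than in Th0 in 10 of 14, by a median of 2.02 times. In Th1 it was lower than in Th0 in 12 of 14. The ratio was 0.228, 0.187 and 0.171 in Th0, Th1 and Treg WT 4, and the highest was 4.02, in Treg WT 2.

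Klrd1, the CD94 chain of NK and CD8 T cell receptors, was the lowest of the 6 in many libraries and stood higher in Treg cultures. In Th0, Klrd1 stood at 1.75, 0.525, 4.74, 10.04 and 1.41 in the WT libraries, 2.53, 15.6, 5.11, 4.60 and 5.27 in the KO libraries and 3.26, 16.5, 0.852 and 1.33 in the KI libraries, all in CPM. In Th1, Klrd1 stood at 2.15, 1.07, 8.03, 35.7 and 1.63 in the WT libraries, 3.89, 27.3, 8.44, 3.59 and 6.57 in the KO libraries and 1.60, 2.93, 18.8, 1.64 and 1.30 in the KI libraries. In Treg, Klrd1 stood at 8.34, 7.31, 12.99, 77.9 and 9.09 in the WT libraries, 10.5, 42.4, 13.6, 5.88 and 10.8 in the KO libraries and 6.36, 9.44, 41.7, 7.10 and 5.17 in the KI libraries. WT 4, KO 2 and KI 3 held the 3 highest places in each culture, with KI 3 first in Th0 and WT 4 first in Th1 and Treg. Outside them, Klrd1 ran from 0.525 to 5.27 CPM in Th0, from 1.07 to 8.44 CPM in Th1 and from 5.17 to 13.6 CPM in Treg. It was higher in Treg than in Th0 in 14 of 14 numbers, higher in Treg than in Th1 in 15 of 15 and higher in Th1 than in Th0 in 11 of 14.

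Klrd1 rose in Treg against Th0 in WT, the only member called there. Of all genes 33.1% were called in that comparison, so 1 of 6 members is no more than that background. The log2 fold change was 2.64 ± 0.999 in WT (adjusted p = 0.038), 1.33 ± 0.96 in KO (adjusted p = 0.30) and 1.35 ± 1.03 in KI (adjusted p = 0.33). The WT call was lost without Treg WT 4, at 1.37 (adjusted p = 0.26). It was also lost without Th0 WT 1, at 2.48 (adjusted p = 0.079), without Th0 WT 2, at 2.37 (adjusted p = 0.085), without Th0 WT 3, at 2.77 (adjusted p = 0.055), and without Th0 WT 5, at 2.42 (adjusted p = 0.084). Fitted on the 2 groups alone it was 2.63 (adjusted p = 0.057), and without a filter on low counts 2.65 (adjusted p = 0.056). With the number as a block, Klrd1 rose in Treg KO by 1.25 ± 0.29 (adjusted p = 0.0010) and in Treg KI by 1.76 ± 0.33 (adjusted p = 0.00012). In these paired comparisons 40.4% and 39.3% of all genes were called. Both Klrd1 calls held in the paired fit without WT 4, KO 2 and KI 3, at 1.19 (adjusted p = 0.0052) and 1.86 (adjusted p = 0.00053). The WT value in that fit was 2.58 (adjusted p = 4.7e-06), with 41.2% of all genes called. The WT groups did not meet the rule for pairs. The unpaired values without WT 4, KO 2 and KI 3 in all cultures were 2.16 in WT (adjusted p = 0.0022), 1.20 in KO (adjusted p = 0.071) and 1.95 in KI (adjusted p = 0.011). The Treg effect on Klrd1 was -1.31 ± 1.34 in KO minus WT (adjusted p = 1.0) and -1.30 ± 1.37 in KI minus WT (adjusted p = 0.92), so no difference between genotypes was shown.

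Treg against Th1 gave 1.25 ± 0.95 in WT (adjusted p = 0.34), 0.74 ± 0.94 in KO (adjusted p = 0.61) and 1.41 ± 0.96 in KI (adjusted p = 0.28) for Klrd1. In WT it was 2.83 (adjusted p = 0.035) without Th1 WT 4 and -0.03 (adjusted p = 0.98) without Treg WT 4, and in KI it was 2.87 (adjusted p = 0.031) without Th1 KI 3. Without all libraries of WT 4, KO 2 and KI 3 the values were 1.53 in WT (adjusted p = 0.023), 0.82 in KO (adjusted p = 0.24) and 1.87 in KI (adjusted p = 0.0065). These groups did not meet the rule for pairs. With the number as a block, Klrd1 was called in each genotype, at 1.81 in WT (adjusted p = 3.1e-05), 0.85 in KO (adjusted p = 0.019) and 1.79 in KI (adjusted p = 2.1e-05). Of all genes, 37.3%, 36.7% and 39.9% were called there. Unpaired, edgeR called 3 of 54 member tests over the 9 culture comparisons, with 6 at an unadjusted p under 0.05, and DESeq2 gave the same counts in each comparison. In these comparisons 3.04% to 33.6% of all genes were called.

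**Figure D5:**
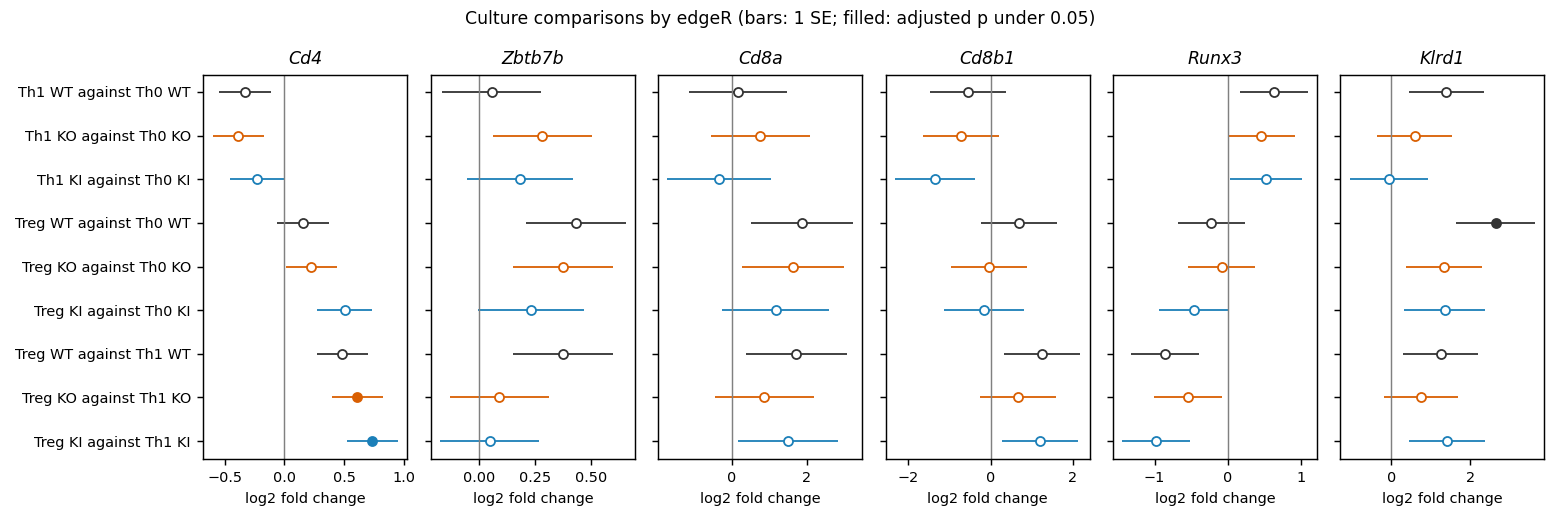
Log2 fold change of each member between cultures within each genotype from the unpaired fit; points are estimates, bars 1 SE and filled points those called. The Cd8a, Cd8b1 and Klrd1 bars are several times as long as those of Cd4 and Zbtb7b, at 0.92 or more against 0.24 or less in the values given in the text.

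Between genotypes, edgeR called 0 of 54 member tests within the 3 cultures, with 2 at an unadjusted p under 0.05, and DESeq2 called 0. Both of these were Zbtb7b in KI against WT, where the log2 fold change was 0.50 ± 0.23 in Th0 (unadjusted p = 0.038, adjusted p = 0.27), 0.63 ± 0.22 in Th1 (unadjusted p = 0.0074, adjusted p = 0.17) and 0.30 ± 0.22 in Treg (unadjusted p = 0.18, adjusted p = 0.75). In Th1, 4 of the 5 KI libraries lay above the highest WT library of 48.1 CPM, and KI 4 lay within the WT range at 45.5 CPM. Few genes of any kind were called between genotypes. In KI against WT these were 0.512% of genes in Th0, 0.0274% in Th1 and 0% in Treg, and in KO against WT 0% in Th0, 0% in Th1 and 0.169% in Treg. In KI against KO they were 0%, 0% and 0.0229%. Cd8a in KO against WT was -1.79 ± 1.36 in Th0 (adjusted p = 1.0), -1.19 ± 1.33 in Th1 (adjusted p = 0.82) and -2.03 ± 1.36 in Treg (adjusted p = 0.67). These negative values turned without WT 4, at 0.55 in Th0, 1.49 in Th1 and 0.91 in Treg, with KO 2 kept in. Without WT 4, KO 2 and KI 3 they were -0.22 in Th0, 1.24 in Th1 and -0.13 in Treg. For the differences of a Th1 or Treg effect between KO or KI and WT, edgeR called 0 of 24 member tests, with 0 at an unadjusted p under 0.05 and 0 by DESeq2, and 0% of all genes.

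Relations between members were computed over libraries without WT 4 and KI 3, which form a cluster of their own, as deviations of log2 CPM from genotype means, and p-values were adjusted over the 45 relations within cultures. The 2 CD8 chains were the pair most often related. For Cd8a with Cd8b1 in Th1 (n = 13), Pearson's r was 0.91 (permutation p = 0.00059, adjusted p = 0.020) and Spearman's rho 0.93 (permutation p = 0.00042, adjusted p = 0.019). In Treg (n = 13), Pearson's r was 0.88 (permutation p = 0.0058, adjusted p = 0.052) and Spearman's rho 0.88 (permutation p = 0.0031, adjusted p = 0.036), and in Th0 (n = 12), Pearson's r was 0.81 (permutation p = 0.0042, adjusted p = 0.052) and Spearman's rho 0.82 (permutation p = 0.0057, adjusted p = 0.051). Klrd1 ran against Cd4 in Th0 (n = 12), where Pearson's r was -0.89 (permutation p = 0.00088, adjusted p = 0.020) and Spearman's rho -0.83 (permutation p = 0.0032, adjusted p = 0.036). Cd8b1 with Cd4 in Th0 (n = 12) gave an r of -0.80 (adjusted permutation p = 0.052) and a rho of -0.85 (adjusted permutation p = 0.031). In all, 2 of 45 passed by r and 4 by rho. With WT 4 and KI 3 kept in, 26 of 45 passed by r and 21 by rho. The r values within cultures with both kept in are not listed because these libraries stand apart.

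Leaving out the 2 remaining libraries farthest from the median of the first gene kept the signs of these relations and left none of them called, with 2 libraries fewer in each. Cd8a with Cd8b1 in Th1 (n = 11) then gave an r of 0.88 (adjusted permutation p = 0.14) and a rho of 0.92 (adjusted permutation p = 0.10). In Treg (n = 11) r was 0.82 (adjusted permutation p = 0.34) and rho 0.82 (adjusted permutation p = 0.18), and in Th0 (n = 10) r was 0.79 (adjusted permutation p = 0.38) and rho 0.67 (adjusted permutation p = 0.48). Klrd1 with Cd4 in Th0 (n = 10) gave an r of -0.84 and Cd8b1 with Cd4 one of -0.84, both with an adjusted permutation p of 0.24.

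Library numbers kept their order between some cultures for some members, again without WT 4 and KI 3 and with adjustment over 18 relations. For Klrd1 in Th1 and Treg (n = 13), r was 0.87 (permutation p = 6e-05, adjusted p = 0.0011) and rho 0.90 (adjusted p = 0.0027), and in Th0 and Th1 (n = 12), r was 0.84 (permutation p = 0.0032, adjusted p = 0.019) and rho 0.76 (adjusted p = 0.039). For Cd8a in Th0 and Treg (n = 12), r was 0.89 (permutation p = 0.0050, adjusted p = 0.023) and rho 0.86 (adjusted p = 0.015), and in Th0 and Th1 (n = 12), r was 0.82 (permutation p = 0.0073, adjusted p = 0.023) and rho 0.78 (adjusted p = 0.039). For Cd8b1 in Th0 and Treg (n = 12), r was 0.88 (permutation p = 0.0019, adjusted p = 0.017) and rho 0.91 (adjusted p = 0.021). For Runx3 in Th0 and Th1 (n = 12), r was 0.89 (permutation p = 0.0088, adjusted p = 0.023) and rho 0.66 (adjusted p = 0.058). Zbtb7b was related between Th0 and Th1 (n = 12), where r was 0.76 (permutation p = 0.0077, adjusted p = 0.023) and rho 0.76 (adjusted p = 0.039), but in Th0 and Treg (n = 12) r was 0.05 (permutation p = 0.88, adjusted p = 0.88) and rho 0.08 (adjusted p = 0.82). In all, 7 of 18 passed by r and 6 by rho, none of them of Cd4, against 15 and 13 with WT 4 and KI 3 kept in. For Cd4 in Th1 and Treg r was negative without WT 4 and KI 3, with the value given below. Without the 2 remaining libraries farthest from the median, Klrd1 in Th1 and Treg (n = 11) still passed by r, at 0.77 (adjusted permutation p = 0.024), and the other 6 relations did not, with r between 0.46 for Runx3 in Th0 and Th1 and 0.82 for Zbtb7b in Th0 and Th1.

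Over all 44 libraries, deviations of log2 CPM from the group means were also compared with those of every named gene at a mean log2 CPM of 2 or more. These r values are a description with no test, and the genes were chosen with WT 4, KO 2 and KI 3 included. Cd8a was most like Cd8b1 (r = 0.95), Lrrk1 (0.89), Klrc1 (0.87), Klrd1 (0.87) and As3mt (0.86), of which Klrc1 encodes an NKG2 partner of CD94. Klrd1 was most like Prf1 (0.94), which encodes perforin, Klrc1 (0.92), Srgap3 (0.91), Gem (0.90) and Tec (0.90). Runx3 was most like Il12rb2 (0.95), a chain of the IL-12 receptor, Cs (0.94), which encodes citrate synthase, Rrbp1 (0.94), Mfsd2a (0.93) and Tagln2 (0.93). Cd4 was most like Serpinc1 (0.89), Trat1 (0.86), Lrig1 (0.85), Tox (0.83) and Gpr83 (0.82), of which Tox encodes a factor needed for CD4 T cells in the thymus. Zbtb7b was most like Tnfrsf25 (0.90), Aspscr1 (0.88), Ldb1 (0.87), Tpra1 (0.87) and Pdlim2 (0.85), and its r with the other 5 members lay between -0.14 and 0.14. Cd4 and Cd8a stood at -0.86. In the 35 libraries other than WT 4, KO 2 and KI 3, r was 0.84 for Cd8a with Cd8b1, 0.44 to 0.68 for Cd8a with its other 4 genes, and 0.35 to 0.71 for Cd4 with its genes. Cd4 with Cd8a then stood at -0.30. For the genes of Klrd1 it was 0.75 to 0.83, for those of Runx3 0.88 to 0.93 and for those of Zbtb7b 0.85 to 0.92. Zbtb7b with the other members ran from -0.11 to 0.47.

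Of 20 other regulators of the coreceptor lineages, such as Gata3, Tox, Runx1, Bcl11b and Myb, 11 were called between Treg and Th1 in each genotype, where 30.8%, 29.99% and 32.8% of all genes were called in WT, KO and KI. In Treg against Th1 9 rose and 2 fell in WT, 10 rose and 1 fell in KO, 10 rose and 1 fell in KI, with median log2 fold changes of 0.31, 0.35 and 0.44 against 0.00 in each over all genes. Gata3, which supports CD4 lineage choice and Th2 cells, rose by 3.56 ± 0.43, 3.79 ± 0.43 and 3.27 ± 0.42 on the log2 scale in WT, KO and KI (adjusted p = 7.1e-08, 2.7e-08 and 2.1e-07). Tox rose by 1.97 ± 0.60, 2.84 ± 0.62 and 2.50 ± 0.61. Runx1, the other main Runx factor of T cells, rose by 2.09 ± 0.31, 1.72 ± 0.31 and 1.57 ± 0.31, while Runx3 itself was not called in this unpaired fit. Satb1, a chromatin organiser of thymocytes, fell, at -1.54 ± 0.33, -2.12 ± 0.34 and -1.96 ± 0.33. In Treg against Th0 8 rose and 2 fell in WT, 5 rose and 2 fell in KO, 9 rose and 0 fell in KI, with medians of 0.27, 0.29 and 0.38 against 0.02, 0.04 and -0.01 over all genes, of which 33.1%, 32.98% and 33.6% were called. In Th1 against Th0 0 rose and 1 fell in WT, 1 rose and 3 fell in KO, 3 rose and 1 fell in KI, against 3.04%, 9.51% and 5.92% of all genes called, and Gata3 fell in each, at -4.02 ± 0.44, -4.10 ± 0.44 and -2.68 ± 0.42. Without WT 4, KO 2 and KI 3, 10 and 2 in WT, 10 and 1 in KO, 11 and 2 in KI rose and fell in Treg against Th1. In Treg against Th0 these were 8 and 2 in WT, 6 and 2 in KO, 9 and 1 in KI. In Th1 against Th0 they were 0 and 1 in WT, 3 and 5 in KO, 3 and 2 in KI. In that setting 36.5%, 34.7% and 37.4% of all genes were called in Treg against Th1 in WT, KO and KI. Treg against Th0 called 37.3%, 38.3% and 36.6% of them, and Th1 against Th0 2.99%, 13.2% and 7.26%. Between genotypes 1 of the 20 was called, Myb, which rose in Treg KO against Treg WT by 1.10 ± 0.24 (adjusted p = 0.029) and fell in Treg KI against Treg KO by 1.22 ± 0.24 (adjusted p = 0.034).

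With all libraries kept in, the 20 CD8 T and NK effector genes were called between Treg and Th0 at about the share of all genes. That share was 33.1% in WT, 32.98% in KO and 33.6% in KI. In Treg against Th0 1 rose and 4 fell in WT, 2 rose and 5 fell in KO, 1 rose and 7 fell in KI, with median log2 fold changes of -0.24, -1.21 and -1.47 against 0.02, 0.04 and -0.01 over all genes. The WT split over all genes was 3807 up to 3440 down. For KO it was 3736 to 3478, and for KI 3659 to 3699. Ctsw, a protease of cytotoxic cells, was the gene that rose in all 3 genotypes, by 4.15 ± 0.65, 3.61 ± 0.64 and 3.79 ± 0.70. Ccl5, a chemokine of effector T cells, fell, at -2.29 ± 0.55, -2.67 ± 0.55 and -3.55 ± 0.59. In Treg against Th1 1 rose and 3 fell in WT, 2 rose and 3 fell in KO, 2 rose and 4 fell in KI. In Th1 against Th0 0 rose and 0 fell in WT, 0 rose and 1 fell in KO, 0 rose and 1 fell in KI. Of all genes, 30.8%, 29.99% and 32.8% were called in the first comparison and 3.04%, 9.51% and 5.92% in the second. Without WT 4, KO 2 and KI 3, 1 and 6 in WT, 3 and 11 in KO, 2 and 11 in KI rose and fell in Treg against Th0. Of all genes, 37.3%, 38.3% and 36.6% were then called, so the share of the 20 was above that of all genes in KO and KI but not in WT. In Treg against Th1, 1 and 5 in WT, 2 and 9 in KO, 4 and 10 in KI rose and fell, with 36.5%, 34.7% and 37.4% of all genes called. In Th1 against Th0, 0 and 0 in WT, 1 and 1 in KO, 1 and 1 in KI rose and fell, with 2.99%, 13.2% and 7.26% of all genes called.

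Of 14 genes of the T cell receptor complex and its first signalling steps, the genes that share the membrane with CD4 and CD8, 5 to 9 rose in Treg in the comparisons with Th0 and Th1, with and without WT 4, KO 2 and KI 3. In Treg against Th0 7 rose and 1 fell in WT, 7 rose and 0 fell in KO, 7 rose and 1 fell in KI, and in Treg against Th1 6 rose and 0 fell in WT, 7 rose and 0 fell in KO, 6 rose and 0 fell in KI. Of all genes, 33.1%, 32.98% and 33.6% were called in the first comparison and 30.8%, 29.99% and 32.8% in the second. Cd3e, a chain of the CD3 complex, rose in Treg against Th1 by 0.90 ± 0.14, 0.96 ± 0.14 and 1.04 ± 0.14. In Th1 against Th0 1 rose and 0 fell in each genotype, where 3.04%, 9.51% and 5.92% of all genes were called in WT, KO and KI. In each case this was Cd28, the costimulatory receptor bound by the antibody in the culture, at 1.19 ± 0.21, 1.32 ± 0.21 and 0.97 ± 0.23. Without WT 4, KO 2 and KI 3, 6 and 2 in WT, 9 and 1 in KO, 7 and 1 in KI rose and fell in Treg against Th0. In Treg against Th1 these were 5 and 0 in WT, 7 and 0 in KO, 6 and 1 in KI. In Th1 against Th0 they were 1 and 0 in each genotype. In that setting Treg against Th0 called 37.3%, 38.3% and 36.6% of all genes in WT, KO and KI. Treg against Th1 called 36.5%, 34.7% and 37.4%, and Th1 against Th0 2.99%, 13.2% and 7.26%.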

How the data were processed

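Polyadenylated RNA of 44 cultures was sequenced as strand-marked paired reads, per the labels' protocols. The authors deposited whole-number counts per gene, with 2 lane columns per library. The file headers name trimming and STAR. The sources used here name neither the counting tool nor its strand setting or annotation. A human assembly, GRCh38, is named in the submitters' processing notes, whereas the gene identifiers are mouse, so positions and exon lengths were taken from GENCODE release 21 on GRCm38. Lanes were summed and groups taken from the labels. The main test was the quasi-likelihood test of edgeR 4.0.16 (R 4.3.3) after TMM scaling and filterByExpr by group, with 9 group means fitted over all 44 libraries. Genes were called at a Benjamini-Hochberg adjusted p of 0.05 over 21873 genes. DESeq2 1.42.0, RLE factors, no filter, fits of 2 groups, a replicate block and leaving libraries out were alternatives. The authors' normalised table was not used. The fit was tested on simulated data. A floor of 3 counts was used. Relations used log2 CPM with a prior count of 2 and 100000 permutations within genotypes, two-sided (numpy 2.4.6, scipy 1.17.1, pandas 2.3.3).

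To see whether library numbers pair the cultures, the deviations of same-numbered libraries from their group means were correlated. Between cultures r lay between 0.0816 and 0.552, and 42 of 43 libraries were closest to their own number. Every pair exceeded 0.1 for Th1 with Th0 in each genotype and for Treg with Th0 in KO and KI. These 5 comparisons were read as paired. In Treg with Th1 all 5 numbers of each genotype were closest to their own number, but the lowest r was under 0.1. Block values for Treg against Th1 are given beside the unpaired ones and were not read as paired. The labels give the numbers without their meaning. The members, lists and naming rule were chosen with earlier results of these data known. The text names the 6 members, the 5 genes most like each of 5 of them, and up to 4 called genes of each list per comparison.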

Additional observations from a re-analysis of the deposited data

Results flagged for a closer look

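The levels of the 6 members and the ratio of Cd8b1 to Cd8a counts were screened in the 9 groups, 63 sets of values, for a library far from the others of its group, which chance alone gives in about 1 in 20. That rate is for independent sets, but several members and same-numbered libraries vary together here. WT 4, KO 2 and KI 3 had been picked by their mean Cd8a, so the Cd8a sets are no separate check of them. In 25 sets a library stood apart, on the high side, and each of these was WT 4, KO 2 or KI 3. For Cd8a these were Th0 WT 4 at 112.7 CPM against 9.62 CPM in the nearest library of its group, Th0 KI 3 at 107.5 against 10.9 CPM, Th1 WT 4 at 131.5 against 8.49 CPM, and Th1 KI 3 at 107.4 against 9.32 CPM. In Treg, Cd8a stood at 443 CPM in WT 4 against 23.9 CPM, 73.1 CPM in KO 2 against 15.4 CPM and 318 CPM in KI 3 against 18.4 CPM.

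For Cd8b1 the libraries were Th0 WT 4 at 75.4 CPM, Th0 KI 3 at 77.3 CPM, Th1 WT 4 at 55.001 CPM, Th1 KI 3 at 32.5 CPM, Treg WT 4 at 147 CPM, Treg KO 2 at 20.6 CPM and Treg KI 3 at 88.8 CPM. For Klrd1 they were Th0 KO 2 at 15.6 CPM, Th0 KI 3 at 16.5 CPM, Th1 WT 4 at 35.7 CPM, Th1 KO 2 at 27.3 CPM, Th1 KI 3 at 18.8 CPM, Treg WT 4 at 77.9 CPM, Treg KO 2 at 42.4 CPM and Treg KI 3 at 41.7 CPM. For Runx3 they were Th1 KO 2 at 189 CPM, Th1 KI 3 at 187 CPM and Treg KI 3 at 168 CPM. No library stood apart by this measure in Cd4, Zbtb7b or the ratio.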

How the results depend on the processing

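The number of members called was 1 for Treg against Th0 in WT and for Treg against Th1 in KO and KI, and 0 in the other 19 comparisons. DESeq2 and RLE factors kept all 22 counts, and all 33 fold changes kept direction and side of the threshold under both. Without a filter on low counts Treg against Th0 in WT called 0, with 18.2% of all genes called. With only the 2 groups fitted it called 0, with 26.3% of all genes called. Th1 against Th0 in KO then called 1, with 20.2% of all genes called. With the library number as a replicate block, Th1 against Th0 called 1 in WT, 2 in KO and 1 in KI, Treg against Th0 called 2 in WT, 2 in KO and 3 in KI, and Treg against Th1 called 4 in WT, 4 in KO and 5 in KI, where 37.3%, 36.7% and 39.9% of all genes were called, and 40.4% in Treg against Th0 in WT. The numbers did not meet the rule for pairs in Treg against Th0 in WT (lowest correlation 0.0919) or in Treg against Th1 (0.0944 in WT, 0.0834 in KO and 0.0816 in KI). Genotype groups of the same number correlated at -0.374 to 0.364, with 4 of 43 libraries closest to their own number, and the block changed no member call there. Without WT 4, KO 2 and KI 3, chosen after the data were seen, Treg against Th1 called 3 in WT and 3 in KI, Th1 against Th0 in KO called 1 and Treg against Th0 in KI called 2. Of all genes these called 36.5%, 37.4%, 13.2% and 36.6%. With both the block and these libraries left out, Th1 against Th0 called 0 in WT, 1 in KO and 1 in KI, Treg against Th0 called 3, 2 and 3, and Treg against Th1 called 5, 2 and 5, with 4.49% to 41.97% of all genes called. The cause of these changes was not tested.

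Leaving out 1 library at a time, members called ran from 0 to 2 for Treg against Th0 in WT, 0 to 3 for Treg against Th1 in WT, 0 to 1 for Treg against Th1 in KO, 0 to 1 for Treg against Th0 in KI and 1 to 2 for Treg against Th1 in KI, and stayed at 0 elsewhere. In the same order, the genes called over all genes ran from 5845 to 8220, 5179 to 7883, 5459 to 7043, 5939 to 7886 and 6048 to 7800. Fold changes that turned sign ran from -0.0155 to 0.31 for Cd4 in Treg against Th0 in WT, -0.0297 to 2.83 for Klrd1 in Treg against Th1 in WT, -1.06 to 4.19 and -1.28 to 3.17 for Cd8a in Treg against Th0 in WT and KI, and -2.21 to 0.82 for Cd8b1 in Th1 against Th0 in WT. For Cd8a in KO against WT they ran from -2.54 to 0.55 in Th0, -1.81 to 1.49 in Th1 and -3.09 to 0.91 in Treg. In Th1 it was 1.24 without WT 4, KO 2 and KI 3. The correlation of Cd4 in Th1 and Treg was -0.208 without WT 4 and KI 3. Leaving out instead the 2 libraries farthest from the median of all libraries gave the same value. For Zbtb7b in Th0 and Treg that second setting gave -0.219. With 2 more libraries left out beside WT 4 and KI 3, r was 0.14 for Cd4 (n = 11) and 0.23 for Zbtb7b (n = 10). A prior count of 0.5 turned no correlation.

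Counts over all genes moved more. Th1 against Th0 called 665 genes in WT, 1563 with the block and 195 with only its groups, 2080 in KO, 3984 and 3707, and 1295 in KI, 2391 with the block and 826 without a filter. With only its groups Treg against Th0 in WT went from 7247 to 4735 and Treg against Th1 in WT from 6737 to 3023. Calls between genotypes were few and moved with the method and with single libraries. Leaving out 1 library, KI against WT ran from 0 genes without Th0 KI 1 or KI 3 to 1003 without KI 4 in Th0, and from 1 to 283 (without Th1 KI 4) in Th1, and KO against WT in Treg ran from 2 without Treg WT 5 to 195 without Treg WT 3. KI against WT in Th0, with 0.512% of genes called in the report, called 22 genes with RLE factors, 4 without a filter, 0 with the block, 0 with only its groups, 1 without WT 4, KO 2 and KI 3 and 659 by DESeq2. By DESeq2, KI against WT in Th1 called 458 in place of 6 and KO against WT in Treg 164 in place of 37. At these depths counting error is small beside the spread between libraries, which limits Cd8a, Cd8b1 and Klrd1 the most.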
